A study of Mus musculus with 4 samples.

Results

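The Hox genes are the homeobox genes that lie side by side in the Hox A, B, C and D clusters. They were chosen here by symbol alone, as the genes named Hox followed by a cluster letter and a paralogue number, and 34 of the 18042 genes in the deposited table are Hox genes by this rule. Of the 39 Hox genes of the mouse, Hoxb1, Hoxd3, Hoxd4, Hoxd11 and Hoxd12 were not analysed here. The Hox A cluster contributes 11 members, Hox B 9, Hox C 9 and Hox D 5. RNA-seq was done on dentate gyrus, a region of the hippocampus, from C57BL/6 mice aged 14 postnatal days, and compared 2 wild-type (WT) samples with 2 samples in which Eed was conditionally knocked out (Eed cKO). The labels name neither what drove the deletion nor the exons removed, nor the sex or litter of the mice, and nothing says which cells of the dissected tissue lost Eed.

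Hox proteins are transcription factors that give cells along the trunk their position. The genes stand in each cluster in the order of their paralogue groups. Low groups are used towards the hindbrain and high groups towards the tail, and the forebrain, which includes the dentate gyrus, normally uses none of them. Where they are unused, the clusters are a classical target of Polycomb repressive complex 2 (PRC2), which methylates histone H3 at lysine 27 and of which Eed is a core subunit. The comparison gives the level of each Hox gene in WT and in Eed cKO dentate gyrus, along each cluster.

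Members of the Hox D cluster differed widely in reads. RefSeq promoter windows on GRCm38.p6, from 250 bases before to 50 bases after an annotated start, are shown for the Hox gene with the most reads in Eed cKO (Hoxd8), for the last gene of the cluster (Hoxd13) and for the only member that was not higher in Eed cKO (Hoxd1). All are on the plus strand, and capitals mark CG dinucleotides, the sites of DNA methylation. The windows are chr2:74704365-74704664 for Hoxd8, chr2:74667975-74668274 for Hoxd13 and chr2:74762730-74763029 for Hoxd1.
Hoxd8: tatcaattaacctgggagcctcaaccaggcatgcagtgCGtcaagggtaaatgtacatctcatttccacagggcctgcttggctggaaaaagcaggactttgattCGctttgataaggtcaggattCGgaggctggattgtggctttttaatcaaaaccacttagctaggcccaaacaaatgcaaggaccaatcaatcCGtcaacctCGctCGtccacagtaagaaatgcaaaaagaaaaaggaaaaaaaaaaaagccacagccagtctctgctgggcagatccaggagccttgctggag
Hoxd13: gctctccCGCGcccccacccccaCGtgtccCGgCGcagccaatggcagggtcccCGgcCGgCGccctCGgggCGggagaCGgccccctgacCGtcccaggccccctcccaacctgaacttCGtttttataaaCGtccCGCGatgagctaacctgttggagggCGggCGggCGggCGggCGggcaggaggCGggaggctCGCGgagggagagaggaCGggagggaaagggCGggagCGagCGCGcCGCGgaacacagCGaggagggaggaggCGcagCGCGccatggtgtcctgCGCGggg
Hoxd1: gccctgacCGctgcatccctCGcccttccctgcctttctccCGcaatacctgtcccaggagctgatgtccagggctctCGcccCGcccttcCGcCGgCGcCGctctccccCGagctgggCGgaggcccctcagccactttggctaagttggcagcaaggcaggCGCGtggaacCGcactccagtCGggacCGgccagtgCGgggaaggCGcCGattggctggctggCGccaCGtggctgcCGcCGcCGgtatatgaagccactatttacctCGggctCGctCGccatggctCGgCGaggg
The Hoxd8 window holds 6 CG, the Hoxd13 window 37 and the Hoxd1 window 29.

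Reads of each library were recovered from the deposited group means and carry the letters A and B within each group, since the replicate number in the titles could not be assigned to them. The libraries held between 17263273 and 17789587 reads over all genes. The dissected tissue expressed the granule neuron factor Prox1 in all 4 libraries, with 3381 and 4482 reads in WT and 925 and 860 in Eed cKO. Eed itself had 251 reads in WT A and 301 in WT B. Eed cKO A had 133 and Eed cKO B 142. Its mean was 50.2% of WT (limma, log2 fold change -0.98 ± 0.14, SE, adjusted p = 0.0189) and both Eed cKO libraries lay below both WT libraries. Some libraries stood apart in other genes. Xist, the transcript of the inactive X chromosome, was read 3809 times in Eed cKO A, against 8 to 11 times elsewhere. The choroid plexus transcript Ttr had 110 reads in WT B and between 23697 and 35706 in the others. The design text calls the replicates biological and does not say whether they came from separate litters.

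Hox reads were almost confined to the Eed cKO libraries. The 34 members together had 3 reads in WT A and 5 in WT B, while Eed cKO A had 732 and Eed cKO B 696. In CPM, which scales reads to the library total, this was 0.169 and 0.288 in WT and 42.0 and 40.3 in Eed cKO, so the groups were far apart and the 2 Eed cKO libraries close together. The ratio of the pooled Eed cKO reads to the 8 WT reads was 179.8, with an exact 95% interval of 91.0 to 417 for counting error only. With 2 libraries in each group, the exact two-sided permutation test gave p = 0.333, the smallest it can give. In bulk tissue, more cells reading a Hox gene and more RNA per cell cannot be told apart.

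Every member had at least 1 read in each Eed cKO library, and 30 of the 34 had no read in either WT library. Of all 18042 genes in the table, 1.24% had no WT read. The 8 WT reads fell on Hoxb3 (0 in WT A and 1 in WT B), Hoxb4 (1 and 2), Hoxd1 (2 and 1) and Hoxd9 (0 and 1). No WT read came from the Hox A or Hox C cluster. The groups did not overlap in 33 members, all higher in Eed cKO, compared with 28.4% of all genes in the table. The exception was Hoxd1, which had 2 and 1 reads in WT and 1 and 1 in Eed cKO, too few for any difference to be detected. Since no gene of the table had under 3 reads in total, most members could be listed only because of their Eed cKO reads. Among the genes with no WT read, 29 of the 156 with more than 3 Eed cKO reads were Hox genes, and so were 13 of the 23 with more than 40.

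**Figure D1:**
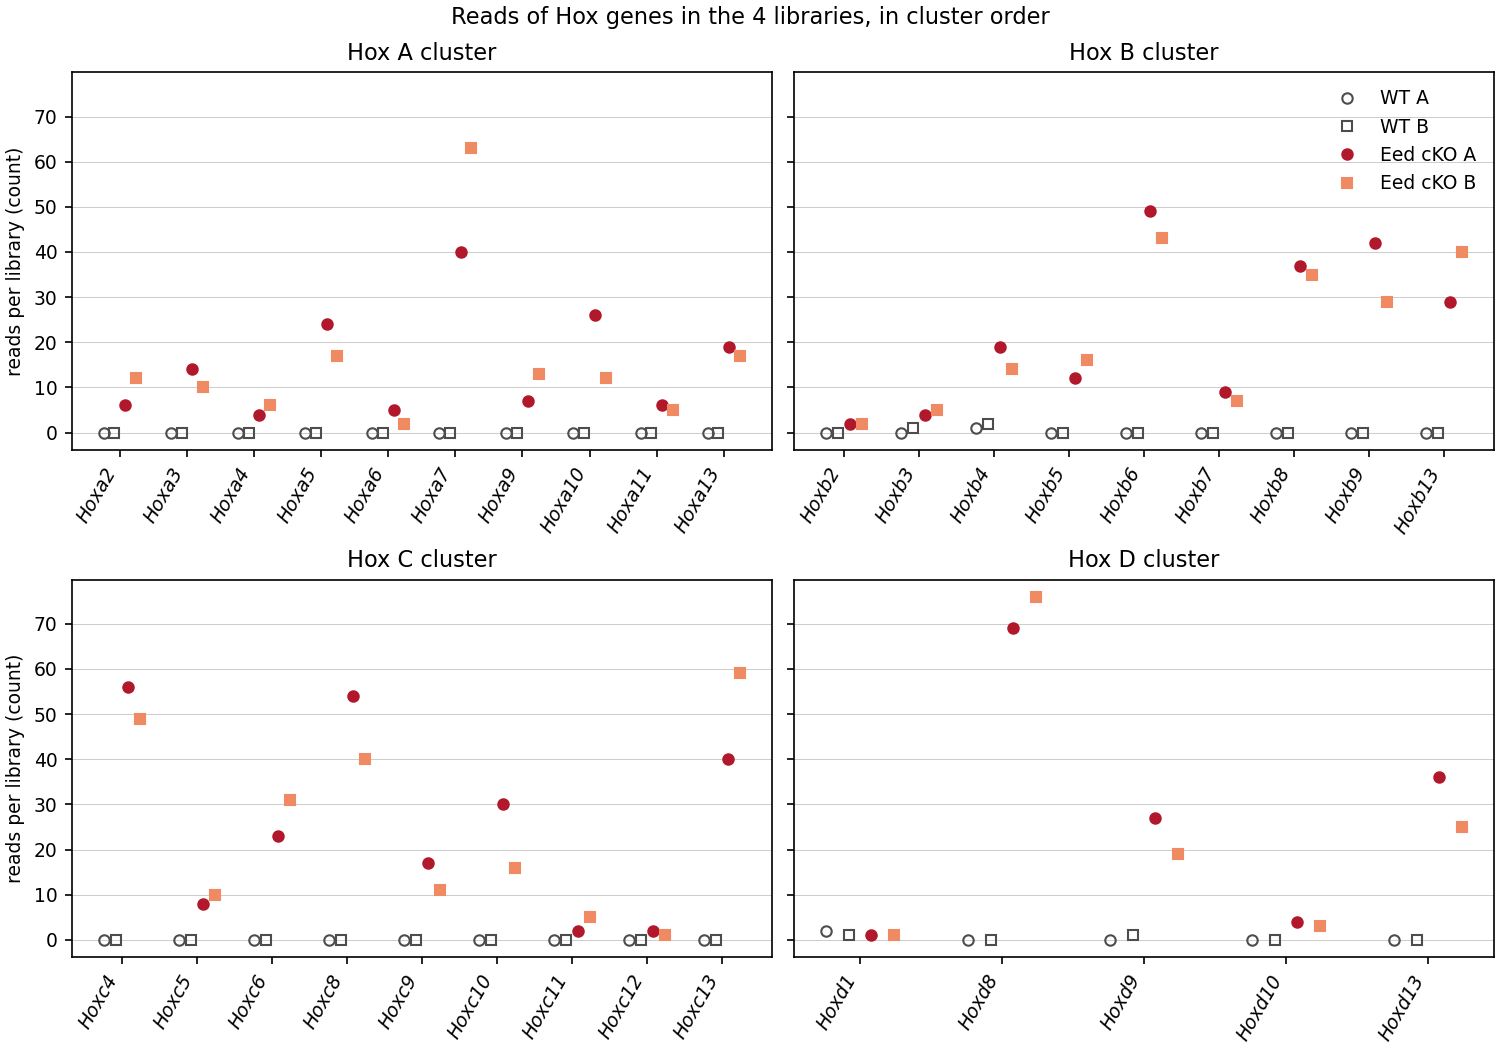
Reads of 33 Hox genes (vertical axis, count) in both WT (open) and both Eed cKO (filled) libraries, with 1 panel for each cluster and the genes ordered from paralogue group 1 to 13. WT symbols lie between 0 and 2 for all genes, while Eed cKO symbols range from 1 read for Hoxd1 to 76 for Hoxd8.

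For the test, limma was fitted to log2(normalized count + 1) over the 15020 genes that reached 10 normalized counts in 2 or more libraries, and 20 Hox genes passed this filter. All 20 were higher in Eed cKO at an adjusted p of 0.05, with adjusted p between 0.00488 and 0.0318. Of all genes tested, 3.54% were called higher and 6.44% in either direction. edgeR called the same 20 (3.78% of all genes higher) and DESeq2 19 of them (3.64%). Without the filter, limma called 23 members higher, against 1.5% of all genes. A Hox gene could pass the filter only by reaching 10 in each Eed cKO library, so the filter fixed the direction of the 20 and their count adds nothing to the reads above. Hoxa3, with 14 and 10 reads, lay just inside the filter and Hoxa9, with 7 and 13, just outside. The 14 members outside it had 4 WT reads and 143 Eed cKO reads in all, between 2 and 20 each over both Eed cKO libraries. In the authors' deposited table, 16 of the 34 Hox genes had an adjusted p under 0.05, of 15043 genes with an adjusted p under 1, of which 3.73% were called higher. That table gives an adjusted p of 1 to 17 Hox genes, as it does to every gene with a mean signal of at most 8.98. Hoxb4 was the other, with an adjusted p of 0.0962 in the authors' deposited table.

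The calls rested on having both Eed cKO libraries. Without Eed cKO A, limma called 0 of the 20 and edgeR 7, against 0.639% of all genes called higher by edgeR. Without Eed cKO B limma and edgeR both called 0, when edgeR called 0.246% of all genes higher, with all 20 at an unadjusted p under 0.05 each time. The reads themselves were as high in either library alone, and all 20 were called without WT A and without WT B.

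Levels are given next by cluster, with positions on GRCm38 from GENCODE M21, as normalized counts, which are reads divided by the library's size factor. For the 29 members with no WT read and more than 3 Eed cKO reads, a WT floor replaces the WT mean. This floor is 3 reads over both WT libraries (1.49 normalized counts in the mean). The fold is the Eed cKO mean, taken as measured, divided by this floor. Written as "at least", it allows for counting error in WT alone and is not a lower confidence limit. The intervals cover counting error only. Those of ratios cover it in both groups, so their lower limits are not comparable with these folds.

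The Hox A cluster (chromosome 6) was read from end to end at mostly low levels. Hoxa7 (chr6:52214491-52221854, minus strand), which acts in the thoracic region, was highest, with 0 and 0 reads in WT and 40 and 63 in Eed cKO. Its mean was 51.6 ± 16.5 normalized counts (SD, n = 2), at least 34.6-fold higher than WT (limma adjusted p = 0.0063). No other Hox A gene came near it. Hoxa5, a gene needed for lung development and phrenic motor neurons, had 24 and 17 Eed cKO reads, and Hoxa10, a gene of the lumbar region and the uterus, had 26 and 12. Hoxa13, which patterns the distal limb, had 19 and 17 reads, and Hoxa3, a gene of the pharyngeal arches and thymus, 14 and 10. These 4 genes had no WT read and were at least 13.8-fold, 12.7-fold, 12.1-fold and 8.05-fold higher (limma adjusted p between 0.0138 and 0.0235). The other members were below the filter and at 0 in both WT libraries. Among them, Hoxa2, a hindbrain gene, had 6 and 12 Eed cKO reads. Hoxa4 had 4 and 6, Hoxa6 5 and 2, Hoxa9 7 and 13, and Hoxa11, which patterns the forearm, 6 and 5.

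The Hox B cluster (chromosome 11) was read mainly from Hoxb6 to Hoxb13. Hoxb6 (chr11:96292476-96301569, plus strand) had 49 and 43 reads in Eed cKO and none in WT, with a mean of 46.0 ± 4.05 normalized counts (SD, n = 2), at least 30.9-fold higher (limma adjusted p = 0.00595). Hoxb8, known in mice for a lineage of microglia, had 37 and 35 reads, Hoxb9 42 and 29, and Hoxb13, a gene of the tail end and the prostate, 29 and 40. Each of these 3 had no WT read and was at least 23.2-fold higher. Between them, Hoxb7 had only 9 and 7 reads and was below the filter. Towards the other end of the cluster the reads thinned out. Hoxb5, a gene of vagal neural crest, had 12 and 16 Eed cKO reads, and Hoxb4, which supports blood stem cells, had 19 and 14 against 1 and 2 in WT. The Hoxb4 ratio was 11.1, with an exact 95% interval of 3.47 to 56.5, and its call was the weakest of the 20 (limma adjusted p = 0.0318) and was lost with DESeq2 (adjusted p = 0.0907). Hoxb3 had 4 and 5 Eed cKO reads against 0 and 1. Hoxb2, a gene of hindbrain facial motor neurons, had 2 and 2 against none.

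The Hox C cluster (chromosome 15), which is known for motor neuron subtypes of the spinal cord, had the most Hox reads. Hoxc4 (chr15:103018934-103036852, plus strand) had 56 and 49 reads in Eed cKO, Hoxc8, a gene of brachial motor neurons, 54 and 40, and Hoxc13, a gene of hair follicles and nails, 40 and 59. None had a WT read, and they were at least 35.2-fold, 31.5-fold and 33.3-fold higher (limma adjusted p = 0.00569, 0.00605 and 0.00616). High members thus lay at both ends and in the middle. Hoxc6 had 23 and 31 reads, Hoxc10, a lumbar gene, 30 and 16, and Hoxc9, the gene that sets thoracic motor neurons apart, 17 and 11. These were at least 18.1-fold, 15.4-fold and 9.39-fold higher than WT, which had none. Between Hoxc10 and Hoxc13 the level was close to 0, with 2 and 5 reads for Hoxc11 and 2 and 1 for Hoxc12. Hoxc5 had 8 and 10 reads, and part of its annotated exons overlaps Hoxc10 on the same strand.

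The Hox D cluster (chromosome 2) held the highest member and the lowest. Hoxd8 (chr2:74704615-74707933, plus strand) had 69 and 76 reads in Eed cKO and none in WT. Its mean was 72.6 ± 5.26 normalized counts (SD, n = 2), at least 48.7-fold higher (limma adjusted p = 0.00488). Hoxd13, which patterns the digits, had 36 and 25 reads, at least 20.5 times the WT level (limma adjusted p = 0.00959). Hoxd9 had 27 and 19 against 0 and 1, a ratio of 46.3 with an exact 95% interval of 7.91 to 1869 (limma adjusted p = 0.017). Hoxd10, a gene of lumbar motor neurons that lies between Hoxd9 and Hoxd13, had only 4 and 3 reads. Hoxd1, which in mice is known for pain-sensing neurons, had 1 read in each Eed cKO library, the smallest Eed cKO level of the 34.

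**Figure D2:**
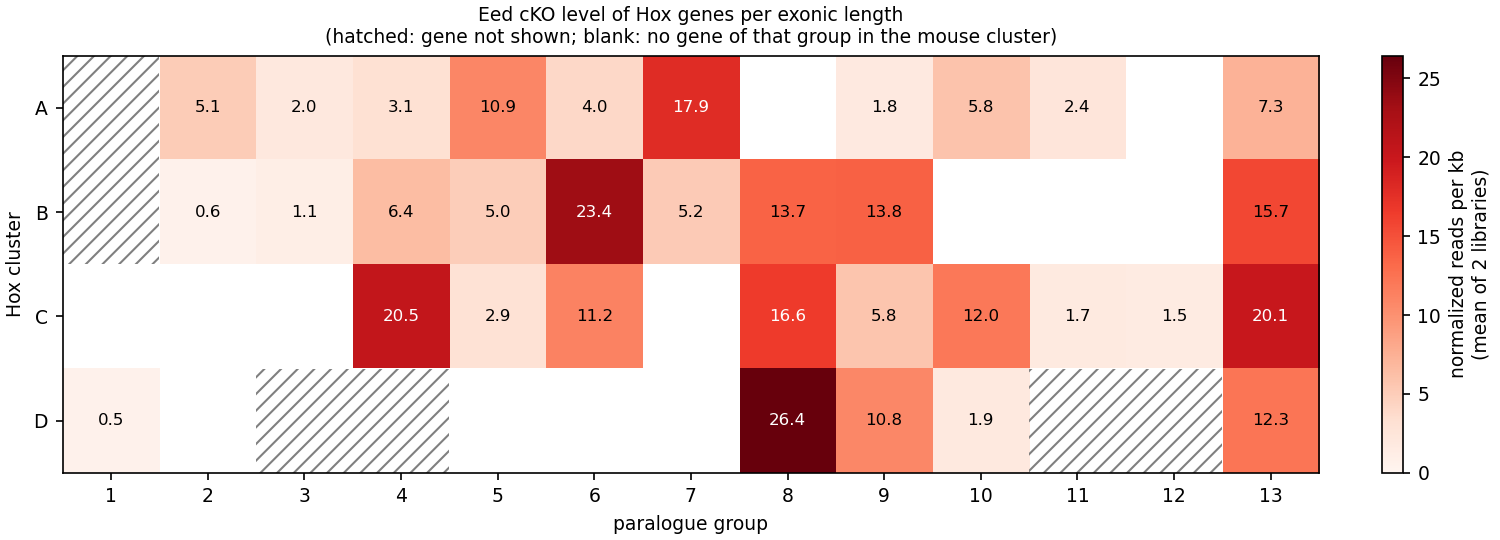
Mean Eed cKO level of 33 Hox genes (colour and printed value, normalized reads per kb of exon, mean of 2 libraries) by cluster (rows) and paralogue group (columns). The darkest cells lie in groups 4, 6 to 8 and 13, while every gene shown of groups 1, 2, 3, 11 and 12 is at most 5.08. Hatched cells hold genes that are not shown.

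Levels of different genes were compared per kb of annotated exon. Hoxd8 was first with 26.4 ± 1.92 normalized counts per kb (SD, n = 2), followed by Hoxb6 with 23.4 ± 2.06, Hoxc4 with 20.5 ± 1.84, Hoxc13 with 20.1 ± 5.55 and Hoxa7 with 17.9 ± 5.74. At the bottom were Hoxd1 with 0.537 and Hoxb2 with 0.574. Of the 33 pairs of neighbours in this order, 28 differed by less than the larger SD of the pair, so neighbours in rank mostly could not be ordered. The first 5 genes by reads took 38.2% of all Hox reads. Per coding length, 9 of the first 10 genes were among the first 10 per exon length. Even the highest members were modestly expressed. The median member had 5.78 normalized counts per kb in Eed cKO and the median of all genes was 56.7. Hoxd8 lay at the 37.5 percentile of all genes per kb in Eed cKO and the median member at the 20.2 percentile.

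By region of the clusters, the first paralogue groups had the fewest reads. The 6 members of groups 1 to 3 together had 36 and 32 reads in Eed cKO A and B. The 14 members of groups 4 to 8 had 409 and 409, and the 14 of groups 9 to 13 had 287 and 255. Groups 1 to 3 thus took 4.92% (exact 95% interval 3.47 to 6.74) and 4.60% (3.17 to 6.43) of the Hox reads of each library. Per kb of exon, the mean level was 1.73 normalized counts for groups 1 to 3, 12.6 for groups 4 to 8 and 7.82 for groups 9 to 13. Members are not replicates of a condition, and no test over genes was run. The order was not a steady gradient along the body axis. Group 8 was the highest, with 160 and 151 reads over Hoxb8, Hoxc8 and Hoxd8, and group 13 came next among the posterior groups, with 124 and 141 reads over its 4 genes. Between them, group 9 had 93 and 72 reads over 4 genes, group 10 had 60 and 31 over 3, group 11 had 8 and 10 over 2 and group 12 had 2 and 1 over 1, with Hoxd11 and Hoxd12 not analysed here. The 4 genes of group 13 ranged from 7.28 ± 0.541 normalized counts per kb for Hoxa13 to 20.1 ± 5.55 for Hoxc13, and all 4 were called.

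By cluster, Hox C had 232 and 222 reads in the Eed cKO libraries, Hox B 203 and 191, Hox A 160 and 159, and Hox D 137 and 124. Hox C took 31.7% and 31.9% of the Hox reads of Eed cKO A and B, and Hox D 18.7% and 17.8%. For each cluster, the shares in the 2 libraries differed by less than the width of their counting intervals. Per kb of exon, Hox D was highest with 11.8 normalized counts, Hox C had 10.9 and Hox A was lowest with 5.17. The Hox D value leaves out the exons and reads of Hoxd3, Hoxd4, Hoxd11 and Hoxd12, which were not analysed here. Its rank above Hox C therefore holds for the analysed members only.

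**Figure D3:**
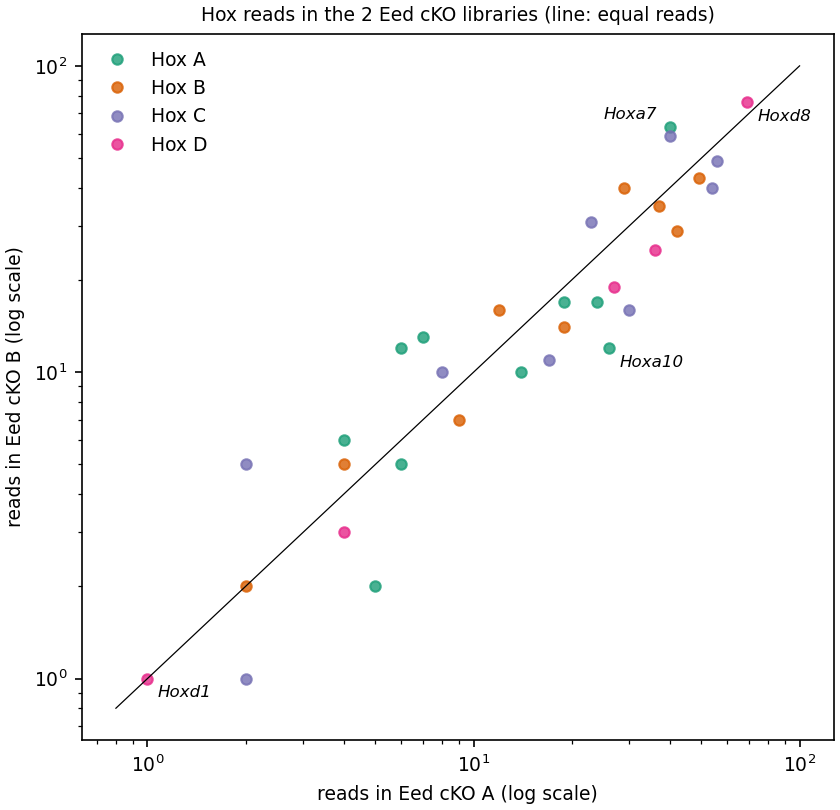
Reads of 33 Hox genes in Eed cKO A (horizontal axis, log scale) against Eed cKO B (vertical axis, log scale), coloured by cluster, with a line of equal reads. Points follow the line over the whole range, and Hoxa7 lies above it and Hoxa10 below it.

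Hox levels were alike in the 2 Eed cKO libraries, which differed in Xist. Across the 34 genes, the reads of the libraries had Pearson r = 0.90 and Spearman rho = 0.92, as a description over genes that share their libraries. For each gene, the share of Eed cKO reads in Eed cKO A was compared with the 50.2% given by the size factors, using exact 95% intervals. The interval left out that value for 2 of 34 genes, in opposite directions. Hoxa7 had 38.8% (29.4 to 48.9) of its reads in Eed cKO A and Hoxa10 68.4% (51.3 to 82.5).

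In the GENCODE M21 annotation of GRCm38, some Hox exons are shared with neighbouring or antisense genes, and whether counting used strand is not given in the sources used here. Annotated exons of 13 members overlap those of another gene by at least 1 base, on the same strand for 6 and on the opposite strand for 8, so the reads of these members are uncertain in their origin. Among them are Hoxa2, Hoxa3, Hoxa4, Hoxa7, Hoxa9, Hoxa11, Hoxb2, Hoxb3, Hoxb5, Hoxc5, Hoxc10 and Hoxd10. The other 21, with Hoxd8, Hoxb6, Hoxc4, Hoxc8 and Hoxc13 among them, overlap no annotated exon.

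Other genes inside the clusters were read at low levels too. The table holds 5 of them, and none passed the filter. Hotairm1, a long noncoding RNA of the Hox A cluster, had 1 and 1 reads in WT and 5 and 7 in Eed cKO. Hoxa11os, antisense to Hoxa11, had 3 and 3 Eed cKO reads, Gm15050 had 5 and 2, 5730596B20Rik had 2 and 4, and Mir196a-1 in the Hox B cluster had 2 and 1. These 4 had no WT read.

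Flanking genes were called about as often as genes overall. The 5 nearest protein-coding genes of the table on each side of each cluster made 40, up to 1555 kb from a cluster, of which 39 were tested. Their median log2 fold change was 0.01, against -0.0032 for all genes tested, and 33 of 39 lay within 0.5 of 0. Of these 39, 1 rose and 1 fell in limma, where 6.44% of all genes tested were called in either direction. Skap2, an adaptor protein gene beyond the group 1 end of the Hox A cluster, rose 1.68-fold, from 168 and 172 reads to 295 and 274 (limma, log2 fold change 0.75 ± 0.12, SE, adjusted p = 0.0218). Chn1, 893 kb beyond Hoxd13, was lower, with 15470 and 14833 reads against 10387 and 10798 (log2 fold change -0.51 ± 0.08, adjusted p = 0.0263). Nearest neighbours on the other sides did not pass. Mtx2, 60.7 kb from Hoxd1, had a log2 fold change of 0.15 ± 0.10, and Lnpk, 88.9 kb beyond Hoxd13, 0.13 ± 0.11. For Hibadh beyond Hoxa13, Smug1 beyond Hoxc4 and Calcoco1 beyond Hoxc13 the values were 0.03 ± 0.08, -0.11 ± 0.11 and -0.20 ± 0.07. The Hox B cluster was less clear at its borders. Skap1 had 17 and 6 reads in WT against 30 and 31 (adjusted p = 0.137), Ttll6, 28.9 kb beyond Hoxb13, 24 and 5 against 41 and 21 (adjusted p = 0.311), and Igf2bp1 10 and 7 against 27 and 29, with adjusted p = 0.05002 for the last in limma, 0.0439 in edgeR and 0.223 in DESeq2. DESeq2 also called Tril, on the group 13 side of Hox A, lower (adjusted p = 0.0423). Igf2bp1 and Tril were singled out after their values were seen. Without WT A, limma gave Skap1, Ttll6 and Igf2bp1 log2 fold changes of 2.2, 2.3 and 1.9, and without WT B 0.8, 0.3 and 1.4. With an Eed cKO library left out, limma calls were lost across the whole table and not only among flanking genes. Evx1 and Evx2, the homeobox genes next to Hoxa13 and Hoxd13, were not analysed here.

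**Figure D4:**
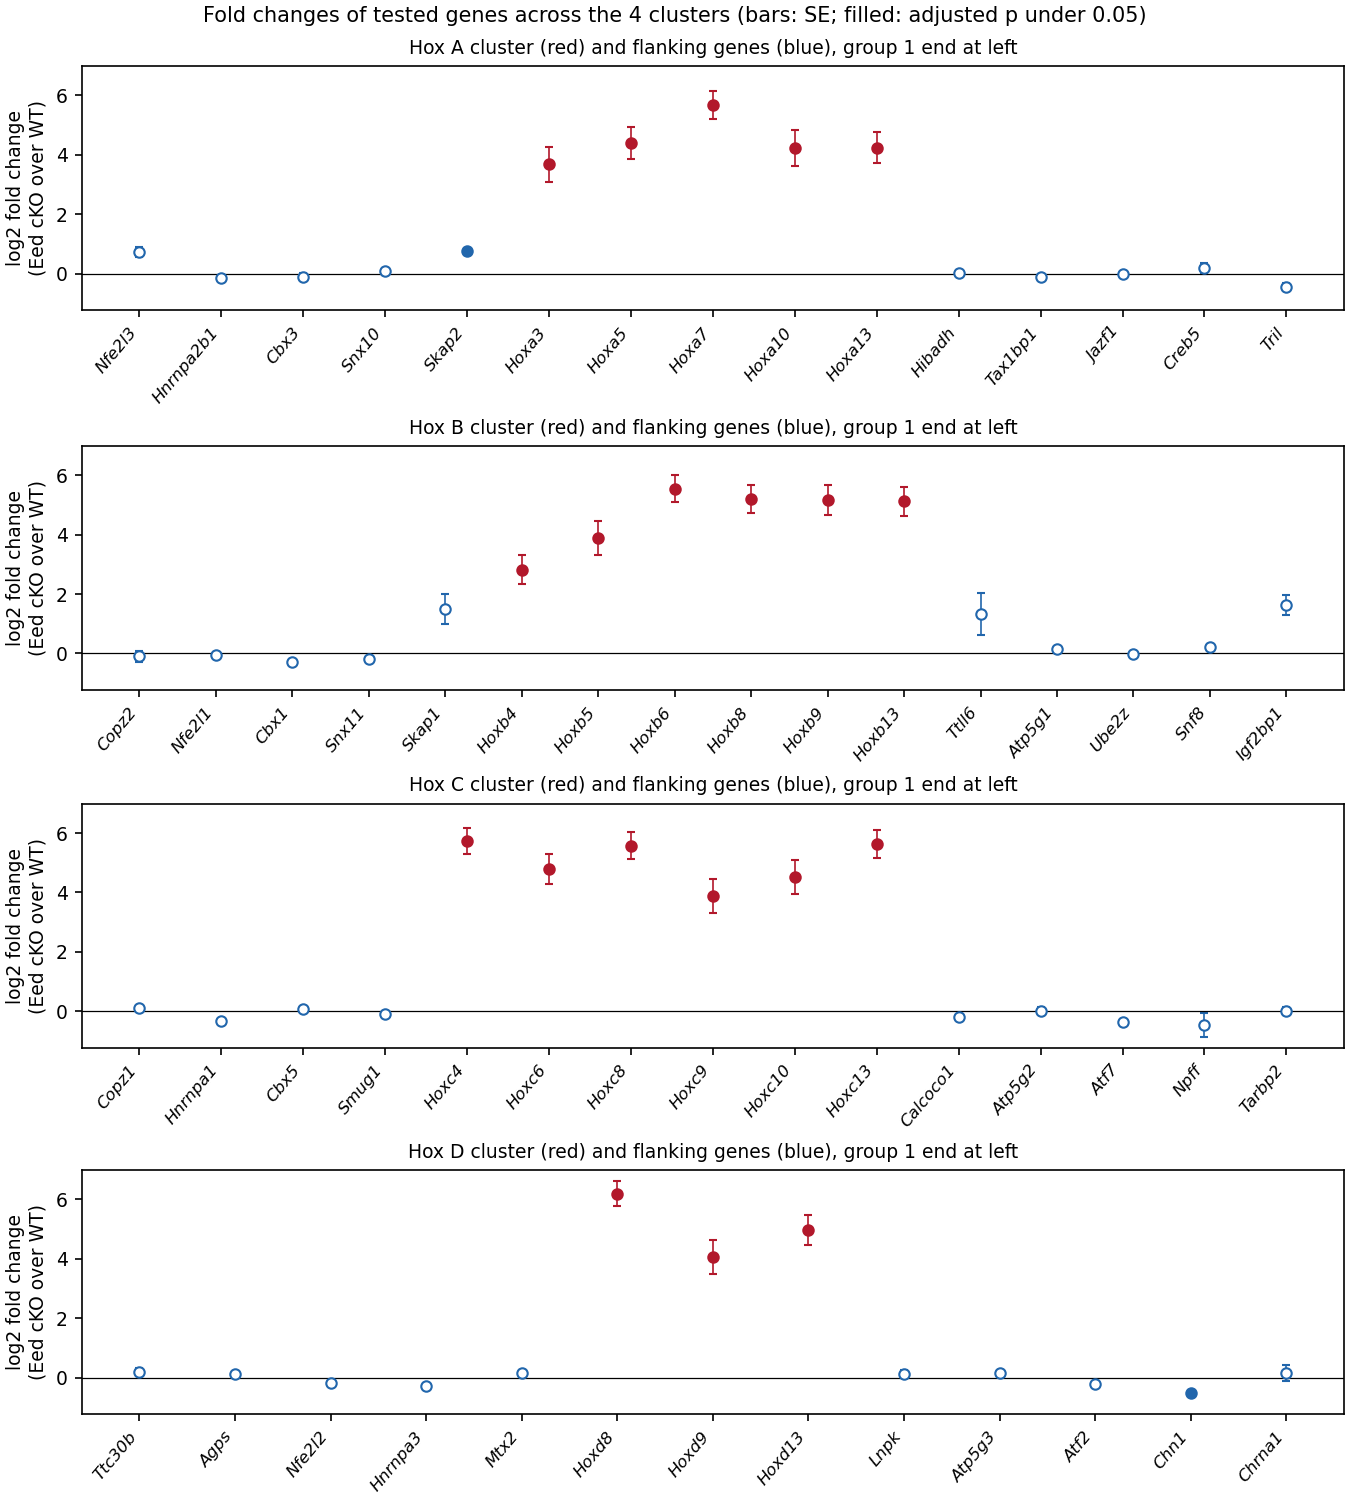
Log2 fold change (Eed cKO minus WT) on the log2(normalized count + 1) scale (vertical axis, with SE) for the tested Hox genes (red) and the tested flanking genes (blue) of each cluster, ordered from the group 1 side to the group 13 side and not drawn to distance. Tested Hox genes lie between 2.83 and 6.20, while flanking genes lie between -0.51 and 1.64 and only Skap2 and Chn1 are filled as called.

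Hox proteins bind DNA together with the TALE homeodomain proteins of the Pbx, Meis and Pknox families, and 3 of the 9 TALE genes rose and none fell in limma, edgeR or DESeq2, with 6 at an unadjusted p under 0.05 in limma. Of all genes tested by limma, 3.54% were called higher and 24.8% had an unadjusted p under 0.05. Pbx3 went from 112 and 181 reads to 417 and 496, a 3.20-fold rise (limma adjusted p = 0.0173, fold on the log2(normalized count + 1) scale). Meis1 had 20 and 29 against 73 and 65, and Meis2 had 368 and 607 against 1106 and 1053, rises of 2.80-fold and 2.30-fold (adjusted p = 0.0346 and 0.0361). The Meis1 and Meis2 calls were lost without the filter. The WT libraries were unequal, with WT B higher for each of the 3 genes. The median log2 fold change of the 9 genes was 0.30. Unlike most Hox genes, all 9 TALE genes were read in both WT libraries, with the fewest reads for Meis1 (20 and 29). Meis2 and Pbx3 are also used in forebrain neurons.

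Among the ParaHox genes, sisters of the Hox clusters, neither of 2 tested genes passed in limma, edgeR or DESeq2, with 1, 1 and 0 at an unadjusted p under 0.05. Gsx2, a forebrain interneuron progenitor factor, had 5 and 0 WT reads and 11 and 12 Eed cKO reads (limma adjusted p = 0.176, unadjusted p = 0.0378). Pdx1, a pancreatic factor, was below the filter with 2 and 3 Eed cKO reads and none in WT. Cdx1, Cdx2 and Cdx4, which activate trunk Hox genes in embryos, were not analysed here. Retinoic acid switches on low-group Hox genes in embryos. Of 13 tested genes of its synthesis, breakdown, binding and receptors, 5 fell and 2, Rxrg and Aldh1a3, rose. The breakdown gene Cyp26b1 was among those that fell, to 48.2% of WT. The calls of Rxrg, Aldh1a3, Crabp2, Cyp26b1 and Aldh1a2 were lost without the filter. Aldh1a2 and Crabp2 are also on the list of meningeal fibroblast markers, of which 11 of 14 fell, and the part of those cells in the lower values was not tested. Aldh1a1, which makes retinoic acid, fell from 1220 and 1506 reads to 286 and 366 (limma adjusted p = 0.00569). Crabp2, which carries retinoic acid, fell to 32.5% of WT (limma adjusted p = 0.0226). The retinoic acid receptors Rara, Rarb and Rarg did not pass, with log2 fold changes of 0.25, -0.30 and 0.0019. Of 11 PRC2 genes, Eed alone passed in limma, edgeR and DESeq2, with 4, 4 and 2 at an unadjusted p under 0.05. The 4 in limma were Eed, Ezh2 and Rbbp4, which were lower, and Phf1, which was higher. Of all genes tested by limma, 24.8% had an unadjusted p under 0.05. None of 10 trithorax-group genes, which oppose Polycomb, passed in limma, edgeR or DESeq2, with 2 at an unadjusted p under 0.05 in each. Rbbp5 had the smallest p of these, with 825 and 890 WT reads and 690 and 657 Eed cKO reads (limma adjusted p = 0.0688). Of all genes tested by limma, 3.54% were called higher and 2.9% lower.

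Markers of other cells were counted in the same libraries. Hindbrain and spinal cord neurons normally use Hox genes. The 12 effector genes of such neurons in the table summed to 603 and 616 reads in WT and 742 and 790 in Eed cKO, and none of the 7 tested by limma and edgeR or the 8 by DESeq2 passed, with 2, 2 and 1 at an unadjusted p under 0.05. The glycine transporter gene Slc6a5, a defining marker of caudal inhibitory neurons, had 2 and 1 reads in WT and 3 and 4 in Eed cKO. Slc18a3, the vesicular acetylcholine transporter, had 3 and 12 against 10 and 6, and Chat and Glra1 were not analysed here. Tph2, of serotonin neurons, had 35 and 44 reads in WT against 22 and 19 in Eed cKO. Slc6a9, of the same list, went the other way, with 432 and 338 against 530 and 480. These were the 2 genes at an unadjusted p under 0.05 in limma. Most meningeal fibroblast markers fell. Their sum was 8562 and 10261 WT reads and 5666 and 5340 Eed cKO reads, and of 14 tested 11 fell, with Crabp2 and Aldh1a2 among them, and 2, Twist1 and Dcn, rose. Col3a1, Mgp and Col1a2 fell to 32.2%, 32.2% and 39.6% of WT. The 13 choroid plexus markers summed to 35907 reads in WT A and 524 in WT B against 37668 and 24912 in Eed cKO, and none passed in limma, edgeR or DESeq2, with 0 at an unadjusted p under 0.05 in each. Hox reads were near 0 in WT A, which had choroid plexus reads, and in WT B, which had few. Both Eed cKO libraries held choroid plexus reads as well as Hox reads. Whether choroid plexus cells gave any of the Hox reads was not tested. Of 12 granule neuron markers, 5 fell and none rose in limma, and their sum was 12274 and 15301 WT reads and 8768 and 8040 Eed cKO reads. Lct and Dsp among them fell to 21.7% and 43.8% of WT. Of all genes tested by limma, 2.9% were called lower and 3.54% higher. Without the filter, limma called 3 granule neuron markers lower, and 6 fibroblast markers lower and 2 higher. The part of any change in cell makeup in the Hox reads was not tested.

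RefSeq promoter windows were found for 17 members, with 2 windows for Hoxa10. They were richer in CG than most. The median Hox window held 17.5 CG (quartiles 9.75 and 25) and the median of all 32851 mouse windows 7 (quartiles 3 and 20), and 13 of 18 Hox windows held at least 10 CG against 43.5% of all. Among members with a window, those with the most reads were not those with the most CG. No window was found for Hoxc13, Hoxc8 or Hoxb6, the next members by read count after Hoxd8, Hoxc4 and Hoxa7. Hoxd8, Hoxc4 and Hoxa7, the members with the highest read counts, had 6, 9 and 9 CG in their windows, while Hoxa13 had 45 with 18.0 ± 1.34 normalized counts and Hoxd1 29 with 1 read in each Eed cKO library. The observed CG over that expected from base content was 0.37 for Hoxd8, 0.90 for Hoxd13 and 0.80 for Hoxd1. The letters TATAAA, searched on both strands, were in 3 of 18 Hox windows, those of Hoxd13, Hoxb8 and the start of Hoxa10 nearer to Hoxa9, and in 13.6% of all windows. Counts per gene do not show which annotated start was used.

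**Figure D5:**
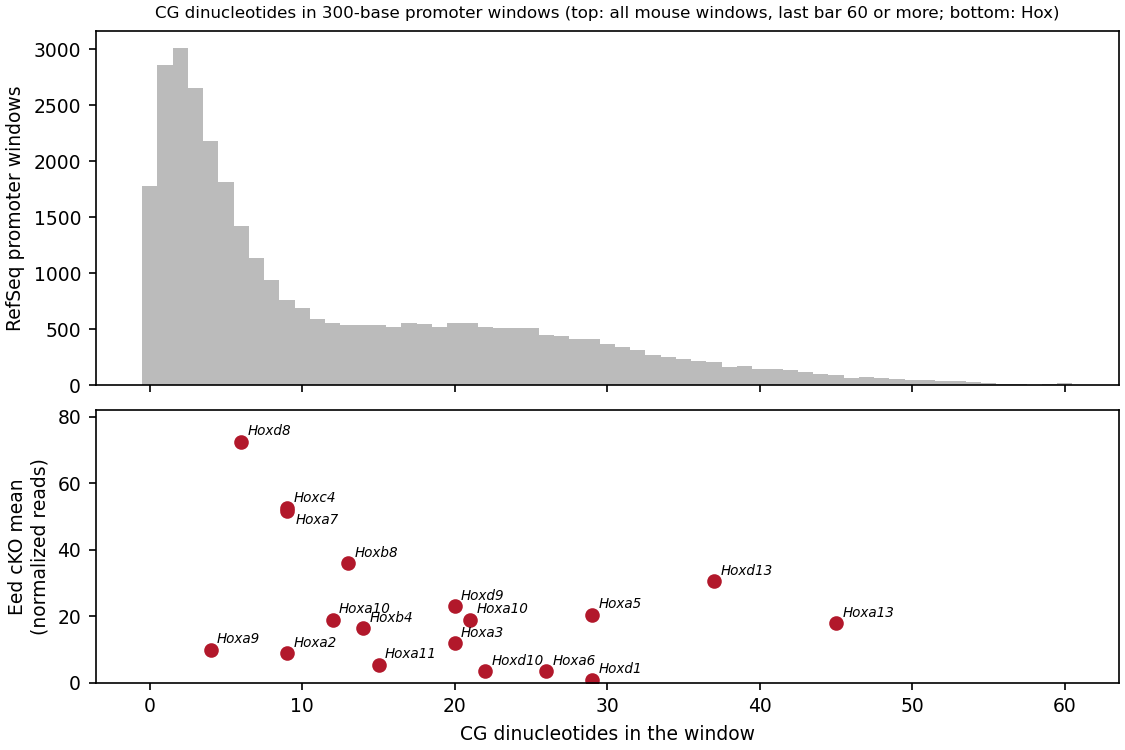
Number of CG dinucleotides in RefSeq promoter windows of 300 bases (horizontal axis), as a histogram of all 32851 mouse windows (top) and against the mean Eed cKO level of the gene in normalized reads for the 18 Hox windows (bottom). Hoxd8, Hoxc4 and Hoxa7 stand highest at 6 to 9 CG, and windows with 20 or more CG belong to genes between 1.0 and 30.5.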

How the data were processed

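RNA-seq libraries of 2 WT and 2 Eed cKO samples, called biological replicates in the design text, were analysed from a single table of 18042 genes. Per the submitters' processing notes, HISAT2 2.1.0, DESeq2 1.2.0 and GRCm38 were used. The read counter and its strand setting: not given in the sources used here. The deposited signal columns hold group means of counts divided by size factors, and the authors' log2 fold changes with their standard errors, test score and p-values stand beside them, per the file headers. Since each mean is a sum of whole reads over size factors, whole reads per library were recovered for 100% of genes within a tolerance of 1e-08. The count test on them (edgeR) called 999 of 15020 genes. Libraries held 17263273 to 17789587 reads, and a count of 3 was taken as the floor for a group at 0.

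The main test was limma 3.58.1 (trend) on log2 values with a pseudocount of 1. It covered the 15020 genes reaching 10 normalized counts in 2 or more libraries, with Benjamini-Hochberg adjustment over all of them. The design had 2 residual degrees of freedom. edgeR 4.0.16 (quasi-likelihood), DESeq2 1.42.0, TMM scaling, pseudocounts of 0.5 and 4, other filters and leaving out each library were alternatives, in R 4.3.3, and the scripts were tested on simulated data. If replicates were not separate animals, p-values measure technical spread. Members, gene lists and tests were chosen with earlier results of these data known. Hox genes are named; of other lists, up to 3 called genes with the smallest p, or the 1 with the smallest p, and of flanking genes the called ones and the nearest on each side. Pdx1, Slc6a5, Slc18a3 and the retinoic acid receptors were added for their roles. Slc6a9 was added to show both directions among the hindbrain and spinal cord neuron genes. Ezh2, Rbbp4 and Phf1 were added to name every PRC2 gene at an unadjusted p under 0.05 in limma. Some members of these lists count in the totals but are not reported here one by one.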

Additional observations from a re-analysis of the deposited data

How the results depend on the processing

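All 20 Hox calls held with TMM scaling, both other pseudocounts, edgeR and no filter, which called 23 Hox genes. DESeq2 called 19, without Hoxb4. A filter of 50 normalized counts left 1 Hox gene, Hoxd8, and gave no value for the other 19. With 1 library left out, Hox calls ranged from 0 to 20 and all genes called from 0 to 1669, against 967. Neighbour calls ranged from 0 to 7, against 2, and cofactor and regulator calls from 0 to 13, against 11. With 1 Eed cKO library left, that library was assumed to vary like the WT libraries. With no filter, 473 genes were called in all and 4 cofactor and regulator genes, where more genes were tested. The summed Hox level of 714 normalized counts in Eed cKO was 555 without Hox A, 517 without Hox B, 487 without Hox C and 584 without Hox D. Without WT B, the log2 fold change turned negative for Lnpk, to -0.016 in limma and -0.0044 in edgeR, and for Ttr, to -0.18 and -0.14. Without Eed cKO B it turned negative for Hibadh, to -0.021 and -0.016. None of the 3 was called, and other uncalled flanking genes with values near 0 also changed sign. With 1 library left out, Lnpk ranged from -0.016 to 0.27, Hibadh from -0.021 to 0.096 and Ttr from -0.18 to 8.08. The cause of the other changes was not tested. No paired analysis was possible because the deposited columns are group means and the recovered libraries carry no replicate number. Depth limits the members with few reads: the 14 below the filter had at most 20 reads over both Eed cKO libraries.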
